A study of Drosophila melanogaster with 6 samples.

Results

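The genes described here encode the nuclear subunits of the mitochondrial respiratory chain and of ATP synthase, measured by RNA sequencing in Drosophila melanogaster embryos. They are the genes of the deposited table whose symbols start with ND-, Sdh, UQCR, COX or ATPsyn, and genes of the mitochondrial genome were left out. This gave 80 of the 14737 genes in the table. The prefix assigned 36 to complex I, 8 to complex II, 9 to complex III, 13 to complex IV and 14 to complex V. Of the 80, 57 encode subunits and 22 are second copies of a subunit gene, recognised by the letter L at the end of the symbol. The remaining gene, Sdhaf3, encodes an assembly factor. A further 8 symbols that fit the rule in the reference name list were not analysed here.

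Total RNA came from whole-embryo lysates of a caper mutant strain (allele CC01391; caper encodes a splicing factor that binds RNA) and of the wild-type strain OreR, with 3 biological replicates of each genotype. Embryos were untreated, were taken from yeasted apple juice plates and were sequenced as read pairs in a single lane; the sources used here do not give their age. Every mutant library came from the CC01391 strain and every other library from OreR, so effects of the allele and of the strain background cannot be told apart. The level of caper was not analysed here, so that gene offered no check of the labels. In these bulk lysates, fewer cells of a type and less RNA per cell cannot be told apart either.

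Complex I oxidises NADH, complex II oxidises succinate, and both pass electrons through ubiquinone to complex III and, by cytochrome c, to complex IV, which reduces oxygen. Complexes I, III and IV pump protons, and complex V uses the returning protons to make ATP. All but complex II combine nuclear subunits with subunits made from the mitochondrial genome. In Drosophila many nuclear subunit genes have a second copy, often a retrogene, whose expression in adults is mostly found in the testis.

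Mutant libraries held 42905168, 36979138 and 42956396 gene counts for replicates 1 to 3, and OreR libraries held 36299246, 40241577 and 34815930. The 80 genes took 0.752%, 0.697% and 0.638% of these counts in mutant replicates 1 to 3, against 0.846%, 0.888% and 0.835% in OreR replicates 1 to 3. All other levels are given as CPM, the usual depth-scaled count of a gene, here with the library size adjusted by the TMM method, which lowered the size of the mutant libraries (factors 0.974, 0.933 and 0.905) and raised that of the OreR libraries (1.07, 1.07 and 1.06). The exons of 28 members overlap those of a gene on the opposite strand in the reference annotation, among them 11 of the 21 genes called below; the sources used here do not say whether counting used strand. On the TMM scale the 80 genes summed to 7414 ± 338 CPM in the mutant and 8021 ± 227 CPM in OreR (SD, n = 3 each).

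Most respiratory chain genes differed little between the genotypes. Of the 61 with enough counts to test, 6 were higher and 15 were lower in mutant embryos (called at an adjusted p below 0.05 by the quasi-likelihood test of edgeR with Benjamini-Hochberg adjustment). That is 34.4% of the tested members, beside 46.9% of all 10251 genes tested (26.4% higher and 20.6% lower). All 3 mutant values lay above all 3 OreR values for 10 members and below them for 25, where the same held for 30.8% and 29.5% of all tested genes (60.4% in either direction). The changes were small. All 56 tested subunit genes stayed within 1.5-fold, the widest change being 1.33-fold, and of the 61 tested members 59 (96.7%) stayed within that bound, beside 63.2% of all tested genes. The median absolute log2 fold change of the tested members was 0.20, against 0.41 for all tested genes. Their median log2 fold change was -0.14, against -0.07. The members and all tested genes were not matched for level in these comparisons.

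The number of lower members changed with scaling and on leaving out single libraries. Under upper quartile scaling the all-gene median log2 fold change shifted by -0.16, and there were 3 higher and 30 lower members (22.1% and 34.8% of all genes). Under that scaling 3 of the 21 calls were lost and 15 were gained. Relative to the median of all tested genes, 25 members lay above and 36 at or below it with either scaling. The count of 15 lower members was 4 without mutant replicate 2 and 5 without mutant replicate 3. It was 8, 7 and 8 without OreR replicates 1, 2 and 3, and stayed 15 without mutant replicate 1. Lower calls over all genes also fell, from 2109 to 1653, 975 and 1282 without mutant replicates 1, 2 and 3. They were 1515, 1538 and 1631 without OreR replicates 1, 2 and 3. The count of 6 higher members was 4 without mutant replicate 2, where higher calls over all genes went from 2702 to 2194. Of the 21 called members, 8 kept their call on leaving out each library: ND-42, Sdhaf3, ATPsynG and ATPsynCF6 among the higher ones and ND-75, SdhA, SdhBL and ATPsynbeta among the lower ones.

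**Figure D1:**
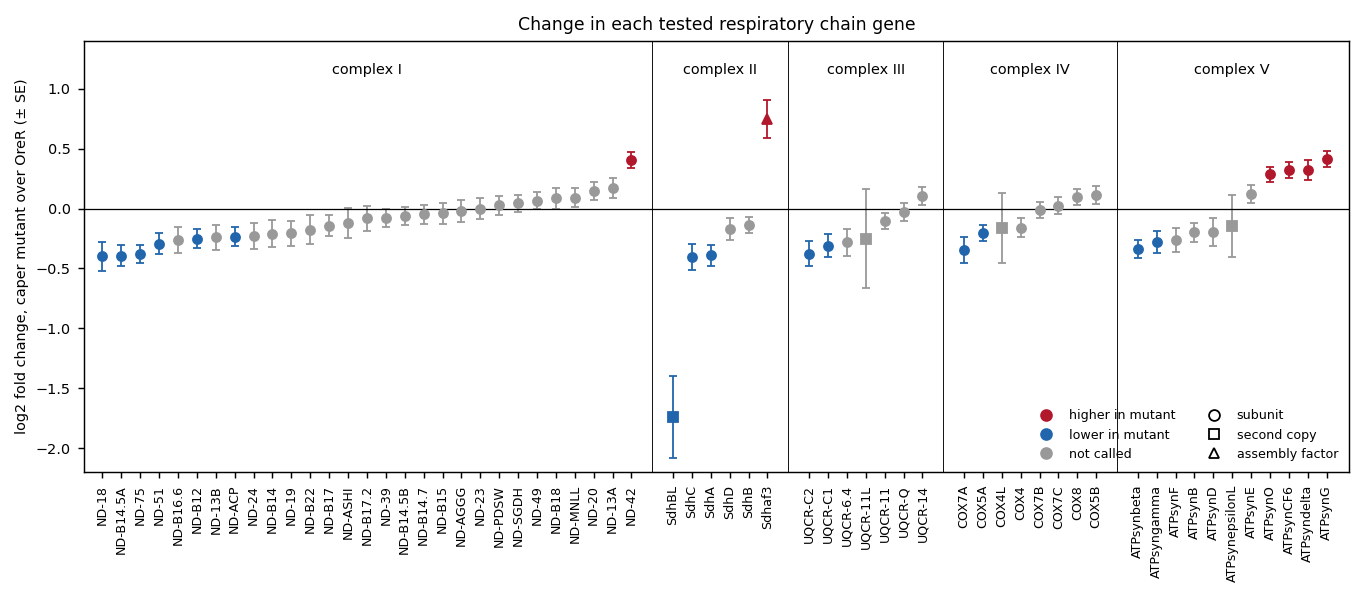
Log2 fold change of caper mutant over OreR embryos with its standard error for the 61 tested genes, ordered within each complex. All subunit genes lie between -0.41 and 0.41, and only the second copy SdhBL at -1.74 and the assembly factor gene Sdhaf3 at 0.74 lie farther out.

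Complex I has a peripheral arm, which takes up NADH at its tip and reduces ubiquinone at its base, and a membrane arm that pumps protons; the places of single subunits in it are taken from the mammalian enzyme and were assigned after the values were seen. Of 29 tested complex I genes, 6 were lower and 1 was higher in the mutant (24.1% called, beside 46.9% of all tested genes). Genes of the NADH-oxidising end held 4 of the 6 decreases among 7 tested, with a median log2 fold change of -0.29. Of all tested genes 20.6% were lower. Of 6 tested genes of the ubiquinone-reducing part, edgeR called 0, with a median of -0.04, and among 15 of the membrane arm 1 was lower and 1 higher, with a median of -0.05. With upper quartile scaling 5 of 7 genes at the NADH-oxidising end were lower. So were 3 of 6 in the ubiquinone-reducing part (ND-13B, ND-39 and ND-B14) and 5 of 15 in the membrane arm. The share of all tested genes called lower with that scaling was 34.8%. The difference between these parts was not tested.

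ND-75, the large iron-sulphur subunit of the NADH-oxidising end, had 205, 195 and 186 CPM in mutant replicates 1 to 3 and 256, 266 and 242 CPM in OreR replicates 1 to 3. Every mutant library was below every OreR library, and the gene was 1.30-fold lower (log2 fold change -0.38 ± 0.08 SE, adjusted p = 0.0053 in edgeR). ND-51, the flavoprotein that binds NADH, averaged 114 ± 11.4 CPM in the mutant and 139 ± 3.88 CPM in OreR (SD, n = 3 each) and was 1.22-fold lower. ND-18 and ND-B14.5A, accessory subunits of the same end, were 1.32-fold and 1.31-fold lower. ND-24, the iron-sulphur partner of ND-51, had 66.1, 54.8 and 54.3 CPM in the mutant and 66.8, 73.7 and 65.0 CPM in OreR, with groups that overlapped (adjusted p = 0.11 in edgeR).

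The single increase in complex I was ND-42, an accessory subunit of the membrane arm. It had 197, 204 and 199 CPM in mutant replicates 1 to 3 and 151, 153 and 150.1 CPM in OreR replicates 1 to 3, a 1.32-fold rise (log2 fold change 0.40 ± 0.06 SE, adjusted p = 0.0020 in edgeR). The ratio of ND-42 to ND-75 counts within a library, which no scaling can move, was 103% ± 5.55 in the mutant and 59.5% ± 2.33 in OreR (SD, n = 3 each). These genes were chosen for their opposite changes, so the ratio is a description.

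ND-ACP, the mitochondrial acyl carrier protein, and ND-49, a core subunit of the ubiquinone-reducing part, had the highest levels per length in complex I, at means of 148 and 138 CPM per kb of exon. ND-ACP was 1.18-fold lower and ND-B12, of the membrane arm, was 1.19-fold lower. ND-49 had 226, 227 and 223 CPM in the mutant and 206, 229 and 212 CPM in OreR, with no call (adjusted p = 0.48 in edgeR). The subunit gene ND-B8 stood apart by its level: it had 14 counts over the 3 mutant libraries and 23 over the 3 OreR libraries, a mean of 0.34 CPM per kb, where the tested subunit genes of all complexes ranged from 39.0 to 499.7 CPM per kb. Its exons overlap those of Gs1l on the opposite strand in the reference annotation, and it was too low to test.

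Apart from ND-42 and ND-75, each call in complex I was lost on leaving out at least 1 library. Lower calls over all genes also fell on each omission, as given above. The 6 decreases became 1 without mutant replicate 2, 2 without mutant replicate 3, and 2, 2 and 3 without OreR replicates 1, 2 and 3. ND-B14.5A lost its call only without mutant replicate 2 (adjusted p = 0.054 in edgeR). ND-18 lost it without either of mutant replicates 2 and 3 or OreR replicates 1 and 2, ND-51 on leaving out any library but mutant replicate 1, and ND-ACP and ND-B12 on leaving out any library.

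Complex II held the largest changes of the set, in SdhBL and Sdhaf3, which are not among its subunits. Of its 6 tested genes, 3 were lower and 1 was higher (66.7% called, beside 46.9% of all tested genes). Its 4 subunits are a flavoprotein (SdhA), an iron-sulphur protein (SdhB) and the membrane anchors SdhC and SdhD. SdhA had 147, 148 and 136 CPM in mutant replicates 1 to 3 and 177, 207 and 179.9 CPM in OreR replicates 1 to 3 and was 1.31-fold lower (log2 fold change -0.39 ± 0.09 SE, adjusted p = 0.0095 in edgeR). SdhC had 71.7, 65.8 and 58.8 CPM in the mutant and 80.9, 96.7 and 82.6 CPM in OreR and was 1.33-fold lower. This was the largest decrease among the 56 tested subunit genes. In both genes the groups did not overlap.

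The other 2 subunit genes were not called. SdhB had 103, 100.1 and 99.5 CPM in the mutant and 109.5, 114 and 109 CPM in OreR (adjusted p = 0.13 in edgeR). SdhD had 53.0, 52.3 and 45.4 CPM in the mutant and 56.8, 57.2 and 55.7 CPM in OreR (adjusted p = 0.15). Their mutant values also lay below all OreR values, and with upper quartile scaling both were called lower. The call of SdhC was lost without mutant replicate 2 (adjusted p = 0.069) or mutant replicate 3 (0.062).

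Sdhaf3 encodes a factor that helps to mature the iron-sulphur subunit, known from yeast and Drosophila. It had 11.3, 12.03 and 11.8 CPM in mutant replicates 1 to 3 and 7.41, 5.66 and 7.92 CPM in OreR replicates 1 to 3. It rose 1.67-fold in the mutant (log2 fold change 0.74 ± 0.16 SE, adjusted p = 0.0076 in edgeR). SdhBL, the second copy of SdhB, moved the other way. It had 0.43, 0.20 and 0.28 CPM in mutant replicates 1 to 3 and 1.26, 0.77 and 1.11 CPM in OreR replicates 1 to 3, from 36 and 123 counts over the 3 libraries of each genotype, and fell by 1.74 on the log2 scale (SE 0.34, adjusted p = 0.0053). As a share of SdhB counts within a library, SdhBL was 0.30% ± 0.11 in the mutant and 0.95% ± 0.25 in OreR (SD, n = 3 each).

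In complex III, 2 of 7 tested genes were lower (28.6% called, beside 46.9% of all tested genes). By edgeR 0 were higher, 0 at an unadjusted p below 0.05 and 0 by DESeq2. The core proteins UQCR-C1 and UQCR-C2, which stabilise the complex on its matrix side, were the called genes. UQCR-C1 had 287, 264 and 242 CPM in mutant replicates 1 to 3 and 308, 358 and 319 CPM in OreR replicates 1 to 3, a 1.24-fold decrease (log2 fold change -0.31 ± 0.10 SE, adjusted p = 0.032 in edgeR). UQCR-C2 averaged 162 ± 15.8 CPM in the mutant and 210.1 ± 19.6 CPM in OreR (SD, n = 3 each) and was 1.30-fold lower. UQCR-14, the gene with the highest level per length in complex III at 256 CPM per kb, had 139, 142 and 135 CPM in the mutant and 123, 136 and 128 CPM in OreR, with groups that overlapped. Without mutant replicate 2 or mutant replicate 3, 0 genes of complex III remained called, and UQCR-C1 was not called without OreR replicate 2 or OreR replicate 3 either.

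The redox subunits of complex III carry other symbols and belong to a list of 8 respiratory genes outside the prefixes. Of these 8 genes, 3 were lower and 1 higher (50% called, near the 46.9% of all tested genes). The Rieske iron-sulphur protein gene RFeSP, at 154 ± 10.1 CPM in the mutant and 188 ± 4.19 CPM in OreR, was 1.22-fold lower, and ox, a small membrane subunit, was 1.35-fold lower. Cyt-c1, the cytochrome of the complex, was 1.16-fold higher (adjusted p = 0.037 in edgeR), a call not made with upper quartile scaling (0.49). Cyt-c1 counts were 121% ± 13.3 of UQCR-C1 counts in the mutant and 83.2% ± 3.30 in OreR (SD, n = 3 each). Cyt-c1 and UQCR-C1 were called in opposite directions, so that ratio is a description. RFeSP counts were 58.2% ± 1.21 of UQCR-C1 counts in the mutant and 57.5% ± 3.25 in OreR. RFeSP and UQCR-C1 thus kept their proportion within the spread of the libraries. Without mutant replicate 2 none of these 4 list genes (RFeSP, ox, Cyt-c1 and the alpha subunit gene blw) was called. RFeSP was also not called without mutant replicate 3 or OreR replicate 3 (adjusted p up to 0.077), Cyt-c1 without mutant replicate 3, OreR replicate 1 or OreR replicate 3 (up to 0.127), and blw without mutant replicate 3 or any OreR library (up to 0.087).

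Complex IV held 2 of the 3 members with the highest levels per length. Of its 8 tested genes, 2 were lower (25.0% called, beside 46.9% of all tested genes). By edgeR 0 were higher, 0 at an unadjusted p below 0.05 and 0 by DESeq2. COX7B was second of all members per length, at a mean of 378 CPM per kb over 417 bases of exon in the reference annotation. It had 157, 163 and 151 CPM in mutant replicates 1 to 3 and 156, 164 and 154 CPM in OreR replicates 1 to 3 (log2 fold change -0.01 ± 0.07 SE). COX5A, the next at 335 CPM per kb, was called 1.15-fold lower, with 255, 247 and 243 CPM in the mutant and 276, 292 and 288 CPM in OreR. COX7A averaged 110.0 ± 15.1 CPM in the mutant and 139.9 ± 8.13 CPM in OreR (SD, n = 3 each) and was called 1.27-fold lower. Neither call held on leaving out libraries: that of COX5A ended on leaving out any library, and that of COX7A on leaving out any but mutant replicate 1. COX4, COX7C, COX8 and COX5B had log2 fold changes from -0.16 to 0.11 and were not called.

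Mitochondrially encoded subunits did not share these small changes. Measured here were 7 genes of the mitochondrial genome that encode subunits of complexes I, III and IV, and mt:ND3 had 0 counts in all libraries. Of the 6 tested, 5 were lower in the mutant (83.3%, beside 20.6% of all tested genes). Their log2 fold changes ran from -8.07 for mt:CoI to -7.52 for mt:CoII. Among the 5, mt:ND6 rested on 0 counts over the mutant libraries and 76 over the OreR libraries. The tested gene not called was mt:ND5, with 1289 counts over the mutant libraries and 1730 over the OreR libraries. Within complex IV, mt:CoI counts were 4.58% ± 2.17 of COX5A counts in the mutant and 1065% ± 118 in OreR, and mt:CoII counts were 3.76% ± 1.23 and 598% ± 67.1 of them in the same order (SD, n = 3 each). The mitochondrial and nuclear genes of complex IV thus differed between genotypes by very unequal amounts.

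Complex V, ATP synthase, held 4 of the 6 increases among the members. Its catalytic head of alpha and beta subunits is driven by a rotating central stalk (gamma, delta and epsilon), held still by a peripheral stalk (OSCP encoded by ATPsynO, F6 encoded by ATPsynCF6, b and d) and anchored by membrane subunits that include e, f and g. Of 11 tested genes, 4 were higher and 2 lower in the mutant (54.5% called, beside 46.9% of all tested genes). With upper quartile scaling 1 was higher and 4 were lower. The decreases were the catalytic subunit ATPsynbeta and the rotor subunit ATPsyngamma. The increases were the central stalk subunit ATPsyndelta, the peripheral stalk subunits ATPsynO and ATPsynCF6 and the membrane subunit ATPsynG.

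ATPsynbeta was the most abundant member per length, at a mean of 499.7 CPM per kb. It had 1092, 1091 and 979 CPM in mutant replicates 1 to 3 and 1314, 1350 and 1329 CPM in OreR replicates 1 to 3, and was 1.26-fold lower (log2 fold change -0.34 ± 0.08 SE, adjusted p = 0.0092 in edgeR). Its partner in the head, the alpha subunit gene blw, had 871, 823 and 729 CPM in the mutant and 991, 1022 and 951 CPM in OreR and was 1.22-fold lower. The counts of blw were 76.6% ± 2.82 of those of ATPsynbeta in the mutant and 74.2% ± 2.33 in OreR (SD, n = 3 each), with groups that overlapped. ATPsyngamma averaged 217 ± 22.4 CPM in the mutant and 263 ± 8.72 CPM in OreR and was called 1.21-fold lower; its call was lost on leaving out any library but mutant replicate 1.

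ATPsynG had 233, 226 and 237 CPM in mutant replicates 1 to 3 and 171, 180.4 and 172 CPM in OreR replicates 1 to 3, a 1.33-fold rise (log2 fold change 0.41 ± 0.07 SE, adjusted p = 0.0023 in edgeR). ATPsynCF6 had 187, 183 and 194 CPM in the mutant and 155, 148 and 149 CPM in OreR, a 1.25-fold rise. ATPsynO had 242, 249.6 and 244 CPM in the mutant and 203, 199 and 202 CPM in OreR, a 1.22-fold rise. ATPsyndelta had 200.1, 222 and 219 CPM in the mutant and 169.9, 161 and 183 CPM in OreR, a 1.25-fold rise. In each of the 4 genes every mutant library was above every OreR library. With upper quartile scaling ATPsynG alone of them was called higher; the adjusted p was 0.058 for ATPsynCF6, 0.10 for ATPsynO and 0.061 for ATPsyndelta. Without mutant replicate 2 the calls of ATPsynO (adjusted p = 0.054) and ATPsyndelta (0.073) were lost, and that of ATPsyndelta also without OreR replicate 1 (0.052).

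Ratios within a library do not depend on scaling, but the genes compared here were chosen for their opposite changes, so the ratios are a description. ATPsynG counts were 21.4%, 20.7% and 24.2% of ATPsynbeta counts in mutant replicates 1 to 3 and 13.0%, 13.4% and 13.0% in OreR replicates 1 to 3. ATPsynO counts were 23.3% ± 1.44 of them in the mutant and 15.1% ± 0.37 in OreR, and ATPsynCF6 counts were 17.9% ± 1.65 in the mutant and 11.3% ± 0.42 in OreR (SD, n = 3 each). ATPsyndelta counts were 83.6%, 102% and 113% of ATPsyngamma counts in the mutant and 65.6%, 58.8% and 71.1% in OreR. In all 4 ratios the mutant libraries lay above the OreR libraries, which followed from the choice of genes, and no test was made. The remaining subunit genes ATPsynB, ATPsynD, ATPsynF and ATPsynE had log2 fold changes from -0.26 to 0.12 and were not called.

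**Figure D2:**
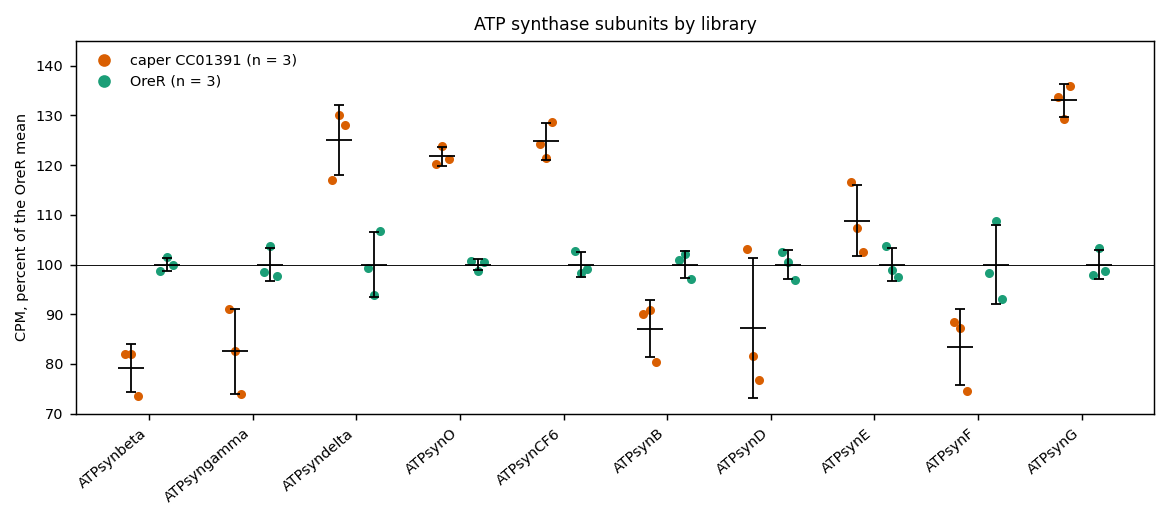
CPM of the 10 ATP synthase subunit genes in each library as percent of the OreR mean of the gene; points are libraries, horizontal marks are means and bars are SD (n = 3). The mutant libraries of ATPsyndelta, ATPsynO, ATPsynCF6 and ATPsynG lie above their OreR libraries, and those of ATPsynbeta and ATPsyngamma lie below.

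Second copies were nearly silent in embryos of both genotypes. All 22 together summed to 4.11 ± 0.83 CPM in the mutant and 5.40 ± 0.44 CPM in OreR (SD, n = 3 each), where the 57 subunit genes summed to 7398 ± 338 and 8008 ± 228 CPM in the same order. ND-24L, UQCR-14L and COX6CL had 0 counts in all 6 libraries, which allows up to 0.0261 CPM in the mutant and 0.0252 CPM in OreR at a floor of 3 counts over the 3 libraries. A further 8 had 1 to 9 counts in all (ND-49L, ND-51L2, ND-B14.5AL, SdhCL, UQCR-6.4L, COX5BL, ATPsynCF6L and ATPsynGL). The 11 others had at least 10 counts, and 4 passed the filter for testing.

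The 4 tested copies were SdhBL, described above as lower in the mutant, UQCR-11L, COX4L and ATPsynepsilonL, a copy of the epsilon subunit gene sun. COX4L had 1.96, 1.04 and 1.47 CPM in mutant replicates 1 to 3 and 1.88, 1.92 and 1.22 CPM in OreR replicates 1 to 3. Per length this was 1.13% of COX4 in both genotypes. ATPsynepsilonL had 1.34, 1.22 and 0.95 CPM in the mutant and 0.95, 1.58 and 1.36 CPM in OreR, which was 0.92% and 1.05% of sun per length in the same order. UQCR-11L reached 1.11% of UQCR-11 in the mutant and 1.25% in OreR. None of these 3 was called (adjusted p = 0.67 for COX4L, 0.66 for ATPsynepsilonL and 0.64 for UQCR-11L in edgeR), and in all 3 the groups overlapped.

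The other copies with at least 10 counts were too low to test. COX7AL2 had 16 counts over the mutant libraries and 22 over the OreR libraries, SdhAL 13 and 19, ATPsynbetaL 18 and 12, COX7AL 10 and 19, ND-51L1 12 and 11, COX6AL 7 and 14, and ND-20L 6 and 5, in the same order. Each lay at or below 0.133% of its partner per length in both genotypes. The partners SdhA, ATPsynbeta, COX7A and ND-51 were lower in the mutant, as given above; levy, the partner of COX6AL, was not called (log2 fold change -0.29 ± 0.11 SE, adjusted p = 0.065), nor was ND-20.

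**Figure D3:**
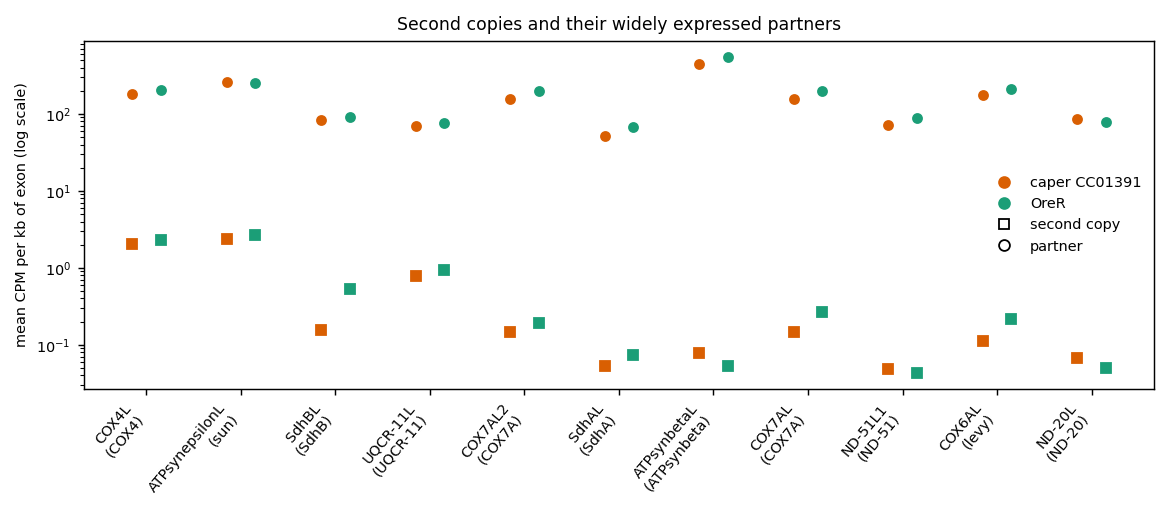
Mean CPM per kb of exon on a log axis for the 11 second copies with at least 10 counts (squares) and for their partners (circles, named in brackets), with caper mutant left of OreR. Every copy lies far below its partner, the closest being UQCR-11L in OreR at 1.25%.

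Most markers of the testis were also close to absent. Of 29 testis genes in the table, 11 had 0 counts in all libraries and 23 were too low to test, among them the sperm tail genes dj and djl and the sperm chromatin gene ProtA, each at 0. Of the 6 tested, 2 were higher and 1 lower in the mutant (50% called, near the 46.9% of all tested genes). The list summed to 176, 163 and 183 CPM in mutant replicates 1 to 3 and 128, 147 and 128 CPM in OreR replicates 1 to 3. S-Lap1 averaged 79.3 CPM in the mutant and 0.14 CPM in OreR, and bol averaged 81.4 CPM in the mutant and 122 CPM in OreR, so these genes made up most of each sum together with mia.

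The level of subunit genes also differed between libraries of a genotype. The mean log2 CPM of the 56 tested subunit genes, relative to the OreR mean, was -0.02, -0.09 and -0.18 in mutant replicates 1 to 3 and -0.02, 0.05 and -0.03 in OreR replicates 1 to 3, so mutant replicate 1 lay within the OreR range. Complex II showed the lowest values (-0.20, -0.25 and -0.37 in mutant replicates 1 to 3) and complex V the highest (0.07, 0.03 and -0.05). Marker lists were summed beside them. Of 15 muscle genes 10 were lower and 1 higher in the mutant (73.3%, beside 46.9% of all tested genes). Their summed levels were 6048, 5074 and 3371 CPM in mutant replicates 1 to 3 and 8671, 9793 and 6675 CPM in OreR replicates 1 to 3. Of 13 neuron and synapse genes 9 were lower and 1 higher (76.9%). Their sums ran from 1137 to 1169.9 CPM in the mutant and from 1346 to 1632 CPM in OreR. Of 11 maternal genes 3 were higher (27.3%), a share near the 26.4% of all tested genes. Their sums ran from 2984 to 4006 CPM in the mutant and from 1315 to 2095 CPM in OreR, mostly from smg, which averaged 2439 CPM in the mutant and 854 CPM in OreR. Without smg and bcd, genes singled out after their values were seen, the sums of the other 9 overlapped, at 905, 1129 and 1073 CPM in mutant replicates 1 to 3 and 981, 652 and 1065 CPM in OreR replicates 1 to 3. Mutant replicate 3 had the lowest muscle sum and the lowest subunit mean, and OreR replicate 2 the highest of both. The neuron and synapse sum was likewise lowest in mutant replicate 3 and highest in OreR replicate 2. The full maternal sum ran the other way, highest in mutant replicate 3 and lowest in OreR replicate 2. The part of tissue makeup or stage in the members' changes was not tested.

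**Figure D4:**
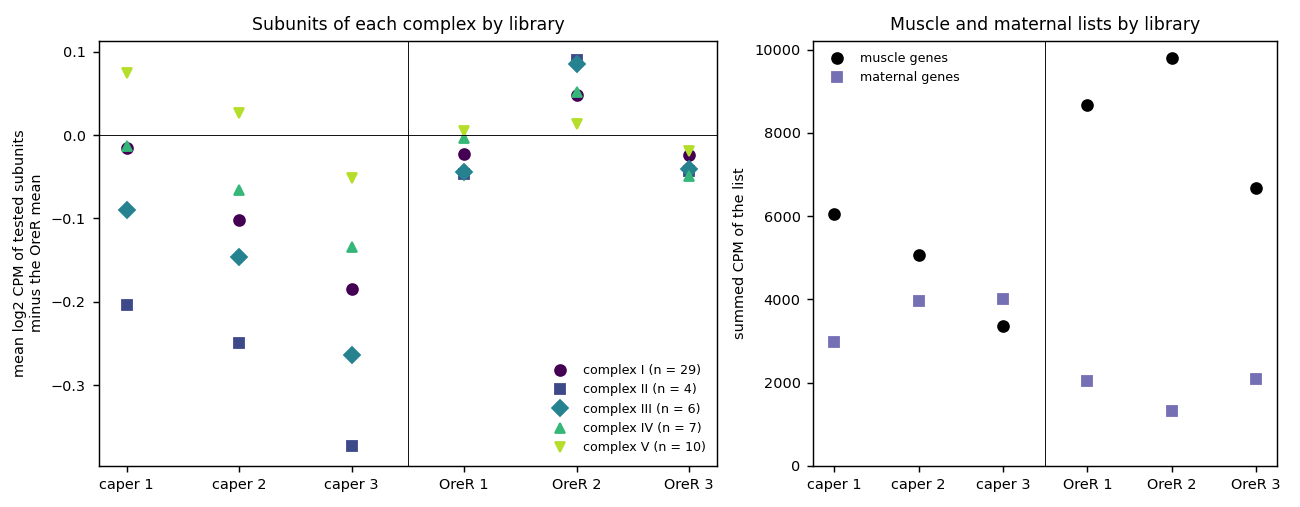
Left, mean log2 CPM of the tested subunit genes of each complex in each library minus the OreR mean; right, summed CPM of the muscle and maternal lists in the same libraries. Subunits of complexes I to V are lowest in mutant replicate 3, the library with the lowest muscle sum and the highest maternal sum.

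Lists of related mitochondrial genes held calls in both directions. The shares were 56.3% for the TCA cycle, 45.0% for biogenesis and 44.4% for the assembly factor list, beside 46.9% of all tested genes. Of 16 tested genes of the TCA cycle and pyruvate oxidation, 6 were lower and 3 higher, with a median log2 fold change of -0.19. The malate dehydrogenase gene Mdh2 was 1.42-fold lower and the pyruvate dehydrogenase genes Pdha and Pdhb 1.29-fold and 1.27-fold lower, whereas Scsalpha1, a subunit of succinyl-CoA synthetase, was 1.33-fold higher. Of 9 genes listed as assembly factors outside the prefixes, 3 were higher and 1 lower. The role of each listed gene was not checked, and CG9399 and CG13551 should not be read as assembly factors. CG9399 rose 1.95-fold, CG13551 1.59-fold and Coa8 1.38-fold, and Bcs1, which inserts the Rieske protein into complex III, was 1.35-fold lower. Of 20 genes of mitochondrial biogenesis, import and genome maintenance, 6 were higher and 3 lower: TFAM, which packages mitochondrial DNA, rose 1.33-fold, the mitochondrial transcription factor gene mtTFB2 1.80-fold and the DNA polymerase gene PolG1 1.79-fold, and Phb1 and Phb2, the prohibitin genes, were 1.25-fold and 1.24-fold lower. Leaving out OreR replicate 3 ended the calls of Bcs1, Pdha, Pdhb, Phb1 and Phb2, and leaving out mutant replicate 2 or mutant replicate 3 ended those of Bcs1, Pdhb and Phb2. With upper quartile scaling 1 TCA cycle gene was higher and 10 were lower. On the assembly factor list 3 genes were higher and 3 lower, and 6 biogenesis genes were higher and 9 lower.

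The use of bins and junctions was called changed in 1 member. The 80 genes had 322 exonic bins and 184 annotated junctions in the table, and 60 genes could be tested for a shift of any bin or junction relative to its gene. The test called 1 of them (1.67%), beside 6.04% of all 8510 genes tested (diffSpliceDGE of edgeR, Simes p per gene, Benjamini-Hochberg adjusted p below 0.05). That gene was ATPsynG (adjusted p = 0.030). Its bin E001 made up 2.11%, 1.98% and 1.67% of gene counts in mutant replicates 1 to 3 and 0.95%, 1.02% and 1.31% in OreR replicates 1 to 3, with groups that did not overlap. The main bin E002 was in 99.7% of gene counts in both genotypes. The call was lost on leaving out OreR replicate 1, OreR replicate 2, mutant replicate 1 or mutant replicate 2, each of which gave 0 called members, and also with exonic bins alone or annotated junctions alone. In ATPsynE, next in order, junction J006 made up 1.26% ± 0.17 of gene counts in the mutant and 2.24% ± 0.30 in OreR (SD, n = 3 each), with no call (adjusted p = 0.13).

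Among the respiratory genes outside the prefixes, 7 could be tested for feature use and 1 was called. That gene was sun, the epsilon subunit gene of ATP synthase (adjusted p = 1.1e-06 in edgeR), whose total level was not called different (log2 fold change 0.04 ± 0.07 SE). Its junction J005 made up 1.16%, 1.17% and 0.80% of gene counts in mutant replicates 1 to 3 and 3.19%, 3.76% and 2.71% in OreR replicates 1 to 3, with groups that did not overlap. Junction J007 made up 1.14% ± 0.29 of gene counts in the mutant and 3.35% ± 0.40 in OreR, and bin E002 made up 1.69% ± 0.45 in the mutant and 4.41% ± 0.56 in OreR (SD, n = 3 each). The other 5 features of sun, which carry most of its counts, were not called. The gene was called with bins alone (adjusted p = 2.9e-05), with junctions alone (5.5e-05) and on leaving out each library, the highest adjusted p being 1.5e-04 without mutant replicate 2.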

How the data were processed

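Total RNA of whole embryos was sequenced with a stranded kit as read pairs, per the labels' protocols. The authors deposited whole-number counts per exonic bin and splice junction with the count of the rest of the gene beside them, and their sum was taken as the gene count. The authors' normalised signal columns, the same counts divided by a size factor per library per the file headers and values, were not used. GSNAP, SAMtools and the builds BDGP5 and mm10 are named in the submitters' processing notes; the sources used here do not give their roles, the annotation, the counter or its strand setting.

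Gene counts were fitted across the whole table in R 4.3.3 with edgeR 4.0.16 (limma 3.58.1), using TMM scaling, filterByExpr, the quasi-likelihood test and Benjamini-Hochberg adjustment at 0.05 over all tested genes. Bin and junction use was tested with diffSpliceDGE. DESeq2 1.42.0, other scalings, no filter, junction counts, a replicate block and the omission of each library were alternatives. The fits were tested on simulated data. Exonic lengths, overlaps and symbols came from the BDGP6 annotation, and no coordinate was used across builds.

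Members and gene lists were chosen with earlier results of these data known, and the structural parts of complexes I and V were assigned after values were seen. Genes were named by rule: in each complex the largest called increases and decreases, the most abundant members and the second copies with at least 10 counts; others named were chosen after their values were seen. Of 5 tested fat body and yolk genes 1 was higher and 1 lower in the mutant (40.0%, beside 46.9% of all tested genes). The 1 tested chorion gene was not called. Same-numbered libraries deviated from their group means with correlations of 0.09, -0.01 and 0.60, so the numbers were not taken to pair them. P-values set the difference between genotypes against the spread between libraries of a genotype, and do not separate the allele from the strain background.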

Additional observations from a re-analysis of the deposited data

How the results depend on the processing

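Of the 21 called members, 7 kept their call under every alternative that tested them: ND-42, Sdhaf3, ATPsynG, ND-75, SdhA, SdhBL (not tested with junctions alone) and ATPsynbeta. No result changed direction while called. Upper quartile scaling gave 3 higher and 30 lower members, with 14 lower in complex I, 5 in II, 4 in III and 4 in V, and 1 higher in V. Annotated junctions alone gave 7 lower members, 2 in complex I, 0 in IV, 1 in V and 0 second copies, and 0 members with changed feature use. No filter gave 8 lower members, 3 in complex I, 1 in III, 0 in IV and 1 in V. The replicate block gave 6 higher and 10 lower members, 3 lower in complex I, 1 in IV and 1 in V, and 1 member with changed feature use. DESeq2 size factors and DESeq2 each gave 1 lower member in complex IV, and exonic bins alone gave 0 members with changed feature use. Leaving out 1 library at a time gave 4 to 7 higher and 4 to 15 lower members in all. Complex I had 1 to 2 higher and 1 to 5 lower, complex II 1 to 1 higher and 2 to 3 lower, and complex III 0 to 0 higher and 0 to 3 lower. Complex IV had 0 to 0 higher and 0 to 1 lower, complex V 2 to 4 higher and 1 to 3 lower, second copies 0 to 0 higher and 1 to 1 lower, and 0 to 1 members changed feature use. The causes of these differences were not tested. Depth limits the second copies, of which 18 of 22 were too low to test.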
